A study of Mus musculus with 6 samples.

Results

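TRBJ2-7 (gene symbol Trbj2-7) is a joining segment of the mouse T-cell receptor beta chain (TCRB) locus, 47 bases long and placed on chromosome 6 at 41543810 to 41543856 of GRCm38.p6 in RefSeq. Its rearrangements were chosen by the J segment name alone, all alleles together, and the segment itself was picked with its high template counts already known. It held 971 of the 4409 listed rearrangements (22.0%) and 2239 of the 7043 templates (31.8%). These 971 entries were 931 distinct nucleotide rearrangements, or 740 clonotypes when the V segment and the CDR3 residues define a clonotype. The samples were genomic DNA of sorted splenic Tfr cells, Foxp3-expressing regulatory T cells of B-cell follicles, from Foxp3GFP mice, with 3 superior and 3 inferior samples, 1 of each per mouse. The labels define superior and inferior no further, give no treatment, age or sort gate, and all groups share the genotype. Libraries held 667 to 1855 templates in 455 to 1112 rearrangements. DNA carries no expression, so the sorted cell type could not be checked against marker genes.

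A TCRB chain is made by joining a V, a D and a J segment, with bases lost and added at both joins. The stretch across the joins encodes complementarity-determining region 3 (CDR3), the part of the receptor that lies over the presented peptide. The locus has 2 clusters, each with 1 D segment followed by its own J segments. TRBD1 can join J segments of either cluster, while TRBD2 lies downstream of the TRBJ1 cluster and ordinarily joins TRBJ2 segments. TRBJ2-7 is the last J segment of the TRBJ2 cluster, and its part of the CDR3 ends in EQYF. The files do not say whether input molecules (templates) or reads were counted. The count is called templates here, and templates per rearrangement is the mean count of a distinct rearrangement in its sample.

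The rearrangements below, all 87 bases long, are the largest TRBJ2-7 clonotype of each mouse and the clonotype found in all 3 mice. Capitals mark the bases that match the commonest TRBJ2-7 ending, read back from the last base. The largest clonotype of mouse 1 was TRBV16 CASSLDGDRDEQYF, that of mouse 2 a 15-residue TRBV2 clonotype, and that of mouse 3 TRBV2 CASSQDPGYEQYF, which tied at 12 templates with TRBV2 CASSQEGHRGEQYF. Both TRBV2 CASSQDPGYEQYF forms, with 6 templates each, are shown because different nucleotides encode the same CDR3.
Mouse 1, TRBV16, 18 templates: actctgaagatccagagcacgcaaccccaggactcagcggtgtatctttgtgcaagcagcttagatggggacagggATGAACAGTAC
Mouse 1, TRBV16, upstream copy, 1 template: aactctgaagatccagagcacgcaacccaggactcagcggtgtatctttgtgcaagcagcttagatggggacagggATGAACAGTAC
Mouse 2, TRBV2, 45 templates: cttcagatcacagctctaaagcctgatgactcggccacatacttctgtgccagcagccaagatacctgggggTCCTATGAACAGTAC
Mouse 2, TRBV2, upstream copy, 2 templates: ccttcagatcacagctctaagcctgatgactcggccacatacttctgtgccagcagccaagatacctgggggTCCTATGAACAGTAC
Mouse 3, TRBV2, form with TRBD1, 6 templates: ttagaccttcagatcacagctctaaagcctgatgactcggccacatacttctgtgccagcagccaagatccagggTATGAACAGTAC
Mouse 3, TRBV2, form with unresolved D, 6 templates: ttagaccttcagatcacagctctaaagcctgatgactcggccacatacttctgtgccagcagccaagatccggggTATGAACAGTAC
Mouse 1, TRBV13-2 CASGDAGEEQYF, 2 templates: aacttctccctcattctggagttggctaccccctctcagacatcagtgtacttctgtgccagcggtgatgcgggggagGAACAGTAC
Mouse 2, TRBV13-2 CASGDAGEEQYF, 2 templates: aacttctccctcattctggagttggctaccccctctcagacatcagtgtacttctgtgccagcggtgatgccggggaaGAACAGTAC
Mouse 3, TRBV13-2 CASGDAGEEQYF, 2 templates: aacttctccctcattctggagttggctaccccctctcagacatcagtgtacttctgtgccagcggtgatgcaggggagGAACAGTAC

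All 971 TRBJ2-7 rearrangements ended in ACAGTAC, and 0 of 3433 rearrangements of other J segments did. The last 12 bases, TATGAACAGTAC, which encode the residues YEQY, were kept in 688 of 971 (70.9%). The 16-base ending CTCCTATGAACAGTAC was whole in 186 (19.2%). So the CDR3 read YEQYF at its end in 70.9% of rearrangements, against GEQYF in 8.14% and DEQYF in 3.91%. Among the 688 with YEQYF, the residue before it was serine in 35.5% and glycine in 28.5%. Templates per rearrangement were 2.18, 2.18, 2.58 and 2.29 with under 12, 12, 13 to 15 and 16 matched bases. Pooled over samples, the share with 1 template was 42.0, 33.3, 31.2 and 28.5% in the same order, highest with under 12 matched bases. Differences between these classes were not tested.

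TRBJ2-7 rearrangements had the most templates each of the 12 J segments of 10 or more templates, in 6 of 6 samples. This measure chose the segment and is given as a description, with no test. Templates per rearrangement were 2.13, 2.27 and 2.17 in the superior samples of mice 1, 2 and 3, and 2.46, 2.34 and 2.36 in the inferior samples. All other J segments together stood at 1.27, 1.35 and 1.32 in the superior samples and 1.42, 1.41 and 1.5 in the inferior samples. Both classes were thus lower in every superior than in every inferior sample. Per mouse, with its samples joined, the means were 2.31 ± 0.0292 for TRBJ2-7 and 1.39 ± 0.0346 for other J segments (SD, n = 3), a log2 ratio of 0.73 ± 0.05.

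Behind TRBJ2-7, at 2.31 over all samples, came 4 segments of the TRBJ1 cluster. TRBJ1-5 had 2.06 templates per rearrangement, TRBJ1-3 2.02, TRBJ1-4 1.81 and TRBJ1-2 1.64. The other TRBJ2 segments were lower, with 1.5 for TRBJ2-1, 1.40 for TRBJ2-2, 1.24 for TRBJ2-3, 1.14 for TRBJ2-5 and 1.12 for TRBJ2-4. The lowest were TRBJ1-6 at 1.07 and TRBJ1-1 at 1.05. TRBJ2-7 exceeded TRBJ1-5 by 0.0479 to 0.438 and TRBJ1-3 by 0.0619 to 0.402 within the samples. Their ranges over samples overlapped that of TRBJ2-7, at 1.80 to 2.32 and 1.77 to 2.30 against 2.13 to 2.46. Those of TRBJ1-4 and of all lower segments did not reach it, and the highest among them was 1.99 for TRBJ1-4 and for TRBJ1-2. More cells of a clone cannot be told apart from a higher count per cell in these files.

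**Figure D1:**
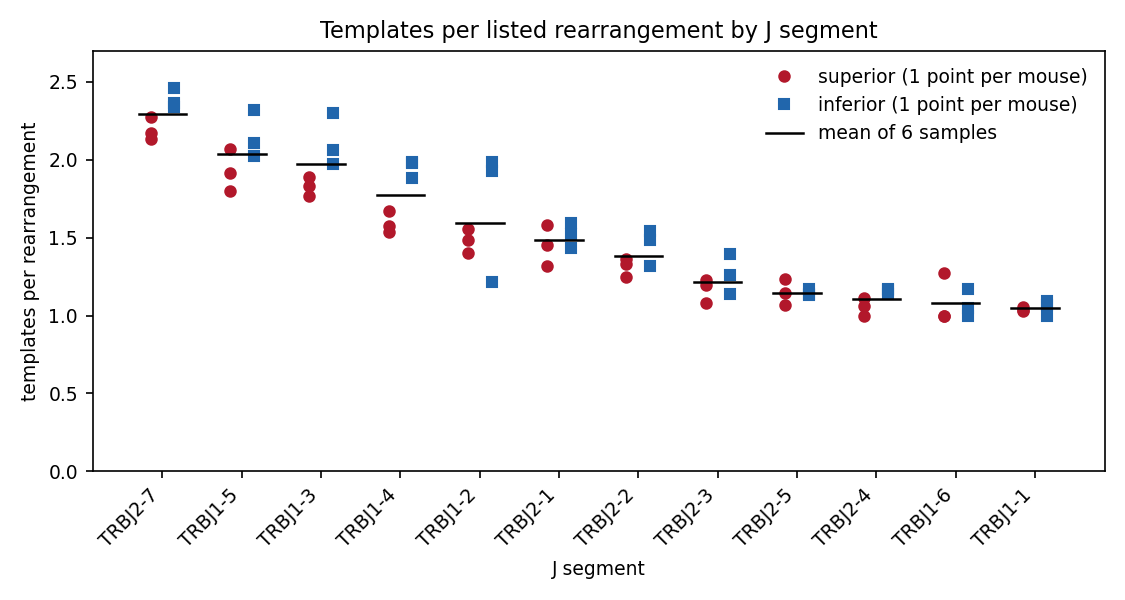
Templates per listed rearrangement (vertical axis) for the 12 J segments of 10 or more templates, with 1 point per sample and a line at the mean of the 6 samples. TRBJ2-7 lies at 2.13 to 2.46 and TRBJ1-1, the lowest, at 1 to 1.09.

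The difference lay across small counts as well as large ones. Of TRBJ2-7 rearrangements, 334 of 971 had 1 template (34.4%, 95% Wilson interval 31.5 to 37.4), against 2543 of 3433 of other J segments (74.1%, 72.6 to 75.5). TRBJ2-7 had 335 rearrangements of 2 templates (34.5%) and 194 of 3 (19.98%), against 18.8% and 3.96% for other J segments. TRBJ1-5 had as few single templates as TRBJ2-7, at 32.3% (25.4 to 40.0), and TRBJ1-1 had 95%. TRBJ2-7 had fewer single templates than TRBJ1-5 in 3 of 6 samples, than TRBJ1-3 in 5 and than each of the other segments in 6. Wilson intervals here and below cover counting error only.

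**Figure D2:**
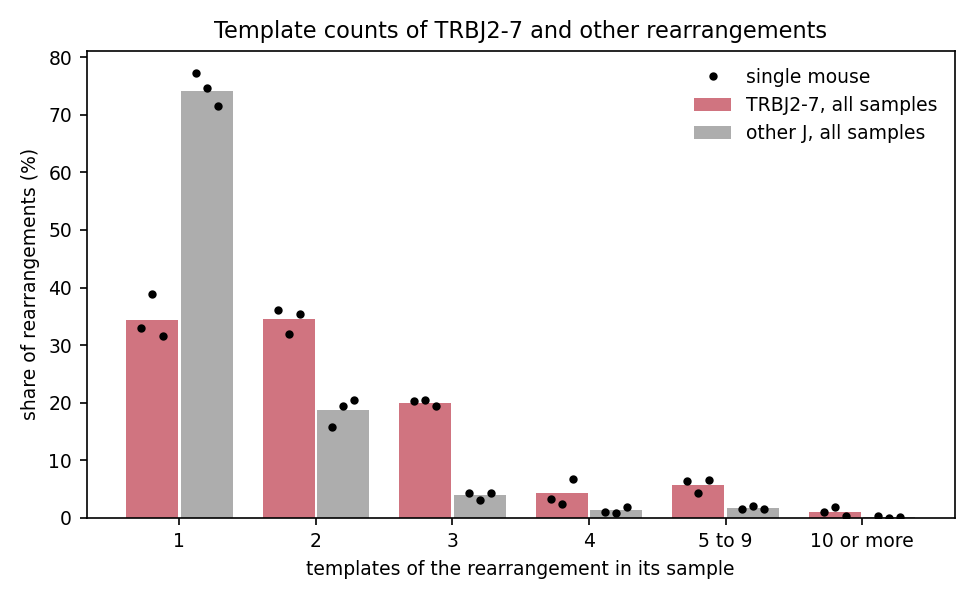
Share of rearrangements (vertical axis, %) by their templates in the sample, for TRBJ2-7 and all other J segments; bars pool the 6 samples and points are single mice. Single templates are 34.4% of TRBJ2-7 and 74.1% of other rearrangements, and 3 templates are 19.98% and 3.96%.

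Some clonotypes were listed as several rearrangements that share the V segment, the CDR3 nucleotides and the J segment and differ upstream. This was the case for 148 of 793 merged TRBJ2-7 clonotypes (18.7%, 16.1 to 21.5), against 234 of 3175 of other J segments (7.37%, 6.51 to 8.33). Beyond the largest of each, TRBJ2-7 had 178 such copies, each with 1 template in its sample. Of these, 145 differed from the larger one by a shift of 1 base in the part upstream of the CDR3. TRBV13-2 held 74 of the 178, TRBV16 24 and TRBV19 24. The upstream copies printed above for TRBV16 and TRBV2 are examples. Each lacks 1 base inside a run of the same base and has 1 more base at its start, so the stretch between is shifted. Merged, TRBJ2-7 clonotypes had 2.82 templates each and 18.9% had 1 template, against 1.51 and 68.5% for other J segments. The part of clone size in the share with copies was not tested.

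Within V segments the order held. Of 21 V segments with 5 or more rearrangements of both classes, TRBJ2-7 had more templates per rearrangement in 21, by a ratio of 1.23 to 2.26 (median 1.66). By V segment and sample it was higher in 114 of 120 pairs, and it was the top J segment in 13 of the 21. The ratio was highest in TRBV23, at 2.6 against 1.15 on 10 TRBJ2-7 rearrangements. The widest gap in templates was in TRBV2, with 4.42 for TRBJ2-7 (64 rearrangements) against 2.03 for other J segments (245). TRBV2 TRBJ2-7 stood at 4.5, 4.38 and 3 in superior samples 1, 2 and 3, and at 4, 7.44 and 4.09 in inferior samples. The inferior sample of mouse 2 was the highest and holds the rearrangement of 35 templates. Without that rearrangement in that sample, TRBV2 TRBJ2-7 still had 3.94 templates per rearrangement over all samples.

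TRBV13-2, the V segment with the most TRBJ2-7 rearrangements (166), had a smaller gap, at 1.80 against 1.32, and 53.6% of its TRBJ2-7 rearrangements had 1 template. It also held the most upstream copies. TRBV19 had 2.05 against 1.31, TRBV3 2.42 against 1.38 and TRBV5 2.26 against 1.28. TRBV13-3 had 2.76 against 1.34, while TRBV31, at 1.83 against 1.42, and TRBV4, at 1.71 against 1.39, were closest. With other J segments weighted to the V use of TRBJ2-7, the log2 ratio was 0.74 ± 0.08 (SD, n = 3), beside 0.73 unweighted.

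**Figure D3:**
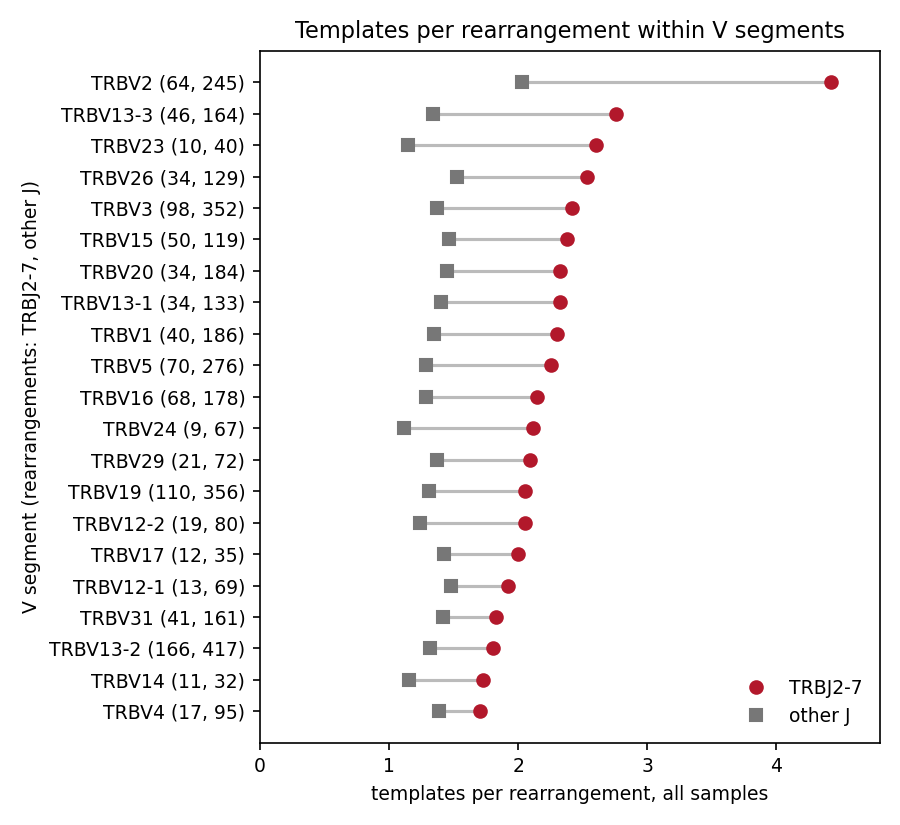
Templates per rearrangement over all samples (horizontal axis) of TRBJ2-7 and of other J segments within the 21 V segments, with the numbers of rearrangements in brackets. TRBJ2-7 lies to the right in each, from 1.71 in TRBV4 to 4.42 in TRBV2.

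V pairing was measured on distinct rearrangements, so that template counts did not enter, but upstream copies count as rearrangements of their own. TRBJ2-7 was listed with 23 of 29 V segments. No V segment passed the test: edgeR's quasi-likelihood test with the mouse as a block called 0 of 23 (0%), with 4 at an unadjusted p under 0.05, and DESeq2 called 0, with 0 unadjusted. TRBV13-2 made up 19.4, 19.3 and 13.9% of TRBJ2-7 rearrangements in mice 1, 2 and 3, against 11.5, 12.5 and 12.1% of others (log2 0.52, SE 0.22, adjusted p = 0.198 by edgeR). Upstream copies were 74 of its 166 TRBJ2-7 listings (44.6%), against 77 of 417 with other J segments (18.5%). With copies merged its log2 difference was 0.15, and by templates it was 0.21. As listed, its TRBJ2-7 share was above the other share in 3 of 3 mice, as were those of TRBV15 (4.75 ± 1.08% against 3.36 ± 0.874%) and TRBV16 (6.90 ± 0.770% against 5.08 ± 0.530%). Merged, the log2 difference of TRBV16 was 0.16 in place of 0.44, and that of TRBV15 0.72 in place of 0.51. TRBV24, at 0.874 ± 0.408% against 2.08 ± 0.567% (SD, n = 3 each), was lower in 3 of 3 mice. TRBV20 and TRBV4 were likewise lower in 3 of 3, at 3.57 against 5.30% and 1.63 against 2.82%; both were named after their values were seen. The adjusted p of edgeR was 0.198 for all 5 of these too. TRBV2 differed most between mice, at 2.56, 6.33 and 9.44% of TRBJ2-7 rearrangements against 8.18, 7.32 and 6.38% of others (log2 -0.19, SE 0.36, edgeR adjusted p = 0.882). TRBV30 was rare in both classes, at 0.204 ± 0.179% of TRBJ2-7 rearrangements against 0.422 ± 0.0869%. TRBV21 had 0 of 933 TRBJ2-7 rearrangements, which allows a share of up to 0.322%, against 11 of 3309 (0.332%).

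By V use, the J segment nearest to TRBJ2-7 was TRBJ2-5, of the same cluster, with a Jensen-Shannon distance (0 for equal use) of 0.239 ± 0.0208 over 3 mice. TRBJ1-1 followed at 0.256 ± 0.0366 and TRBJ1-4 at 0.258 ± 0.0544, which do not differ beyond their spread. The distance of TRBJ2-7 between mice was 0.199 ± 0.0306. In templates per rearrangement TRBJ2-5 and TRBJ1-1 were among the 4 lowest segments, while TRBJ1-4 came next after TRBJ1-5 and TRBJ1-3. Segments with few rearrangements have noisier V shares, and the farthest, TRBJ1-6 at 0.462, also had the fewest.

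D use of TRBJ2-7 was set against that of its cluster. Among rearrangements with a resolved D segment, TRBD1 was listed in 35.0, 43.2 and 39.1% of TRBJ2-7 in mice 1, 2 and 3, against 36.9, 35.6 and 42.9% of TRBJ2-1 to TRBJ2-5. The difference of 0.595 points (SD 6.11) was higher in 1 of 3 mice and smaller than the spread between mice (two-sided exact permutation test within mice, p = 1; smallest possible 0.25). With unresolved D segments kept in the total, the difference was 3.71 points (SD 3.64), higher in 3 of 3 mice (exact permutation p = 0.25, the smallest possible), and by templates it was 3.23 points (SD 3.31), higher in 2 of 3. The TRBJ1 cluster had TRBD1 in 92.0%, 984 rearrangements, while 86 were listed with TRBD2, which ordinarily joins TRBJ2 segments. How often the listed D segment is wrong was not tested. The D segment was unresolved in 11.7% of TRBJ2-7 rearrangements, against 20.4% of TRBJ2-1 to TRBJ2-5. TRBJ2-7 templates per rearrangement were 2.53 with TRBD1, 2.18 with TRBD2 and 2.21 with an unresolved D. In the same order TRBJ2-1 to TRBJ2-5 had 1.30, 1.24 and 1.28, so the difference between J segments was present with each D.

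TRBJ2-7 CDR3s were shorter than those of other J segments. Their mean length was 13.4, 13.3 and 13.4 residues in mice 1, 2 and 3, against 13.9, 14.0 and 13.9. The difference was -0.58 ± 0.11 residues (SD, n = 3), lower in 3 of 3 mice. Its exact permutation p of 0.25 is the smallest that 3 mice allow. Against the TRBJ1 cluster alone the difference was -0.32 residues, lower in 3 of 3 mice. CDR3s of 12 or fewer residues made up 24.9% of TRBJ2-7 and 14.3% of other rearrangements, and those of 16 or more 3.10% and 11.5%. TRBJ2-7 was not the shortest: TRBJ1-1 averaged 13.2 residues, and TRBJ1-2 and TRBJ1-5 averaged 13.5 each. Those of TRBJ2-1 to TRBJ2-5 averaged 14.1. In RefSeq TRBJ2-7 has 47 bases, against 49 to 51 for TRBJ2-1 to TRBJ2-5, 48 for TRBJ1-1 and TRBJ1-2 and 50 for TRBJ1-5. The part of segment length in CDR3 length was not tested. Within TRBJ2-7, templates per rearrangement had no steady course from 12 to 15 residues, at 2.19, 2.43, 2.22 and 2.48. At 16 residues they were 1.70 on 27 rearrangements. In mice 1, 2 and 3 that value was 1.67, 1.83 and 1.67, the lowest of 12 to 16 residues in each.

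**Figure D4:**
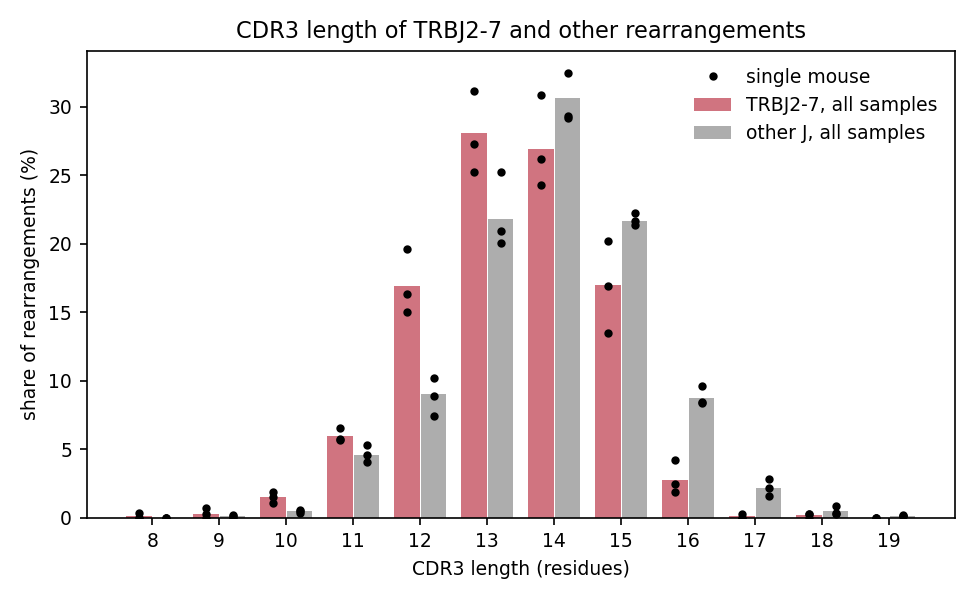
Share of rearrangements (vertical axis, %) by CDR3 length in residues, for TRBJ2-7 and other J segments, among CDR3s that start with cysteine; bars pool the 6 samples and points are single mice. TRBJ2-7 peaks at 13 residues (28.1%) and other J segments at 14 (30.7%).

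High template counts were more frequent with TRBJ2-7, which follows from the measure that chose it. Rearrangements of 5 or more templates in the mouse were 8.42, 7.33 and 7.22% of TRBJ2-7 in mice 1, 2 and 3, against 2.04, 2.36 and 2.15% of other J segments. Counted by sample, TRBJ2-7 held 66 of 128 rearrangements of 5 or more templates (51.6%), 10 of 14 of 10 or more and 4 of 4 of 13 or more. Those of 10 or more numbered 3, 6 and 1 with TRBJ2-7 in mice 1, 2 and 3, against 3, 0 and 1 with other J segments. The 15 largest TRBJ2-7 clonotypes held 248 templates, 11.1% of its total, and used 7 V segments, with 5 in TRBV2. Of these 15, 12 were found in 2 or more samples, and 11 in 1 mouse only. They were ranked by templates summed over all samples, so presence in several samples itself helps a clonotype enter the list.

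The largest, the 15-residue TRBV2 clonotype printed above, had 11 superior and 36 inferior templates in mouse 2. TRBV13-2 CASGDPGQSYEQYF, also of mouse 2, had 14 superior and 7 inferior templates. TRBV16 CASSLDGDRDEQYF had 5 superior and 14 inferior templates in mouse 1. TRBV13-3 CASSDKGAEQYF had 13 superior and 5 inferior templates in mouse 2. So the larger part of such a clonotype's templates lay in either sample. Sample totals differed, at 667 superior and 1370 inferior templates in mouse 1, and 1095 and 920 in mouse 2. The counts above are not scaled to them. At the end of the 15 stood a 14-residue TRBV13-2 clonotype with 9 templates, the same number as the next one outside, TRBV3 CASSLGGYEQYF.

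Pooled over mice, TRBJ2-7 rearrangements of 10 or more templates in 1 sample were also in the mouse's other sample more often than smaller ones. This was so for 2 of 3, 6 of 6 and 0 of 1 in mice 1, 2 and 3. Of all TRBJ2-7 rearrangements, 3.30, 7.33 and 1.94% were in both samples of mice 1, 2 and 3, against 2.97, 4.05 and 4.09% of other J segments. The difference of 0.489 points (SD 2.72) was higher in 2 of 3 mice and did not pass the exact permutation test within mice (p = 0.75, smallest possible 0.25). It rested on mouse 2, without which it was -0.906 points.

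To compare like sizes, each listed rearrangement was placed by its templates in 1 sample and looked up in the other sample of the mouse. This setting was added after the data were seen. Of TRBJ2-7 listings of 1 template, 20 of 334 were also in the other sample (5.99%, Wilson 3.91 to 9.07), against 148 of 2543 of other J segments (5.82%, 4.97 to 6.80). At 2 to 4 templates it was 41 of 571 (7.18%, 5.34 to 9.60) against 77 of 828 (9.30%, 7.5 to 11.5). These intervals overlap. At 5 to 9 templates it was 7 of 56 (12.5%, 6.19 to 23.6) against 22 of 58 (37.9%, 26.6 to 50.8), and at 10 or more 8 of 10 against 1 of 4. In mice 1, 2 and 3 the 5 to 9 class was 2 of 18, 2 of 14 and 3 of 24 against 6 of 15, 11 of 19 and 5 of 24. A rearrangement in both samples enters once from each, so the listings are not independent. The other J segments are pooled here and differed among themselves. At 2 to 4 templates summed over the mouse, the share in both samples ran from 2.25% for TRBJ1-5 to 41.7% for TRBJ1-1. TRBJ1-3 had 2.90% and TRBJ2-7 3.28%. That sum holds the sharing itself, so this is no comparison at equal size. Weighted to the sizes of TRBJ2-7 in 1 sample, the shares of mice 1, 2 and 3 were 6.38, 12 and 3.81% against 8.91, 9.52 and 10.1%. That difference of -2.11 points (SD 4.43) was lower in 2 of 3 mice and within the spread between mice (exact permutation p = 0.5). In mouse 2 other J segments had 0 listings of 10 or more templates. The 6 TRBJ2-7 listings of that class, all 6 found in the other sample, were therefore left out of this weighting.

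**Figure D5:**
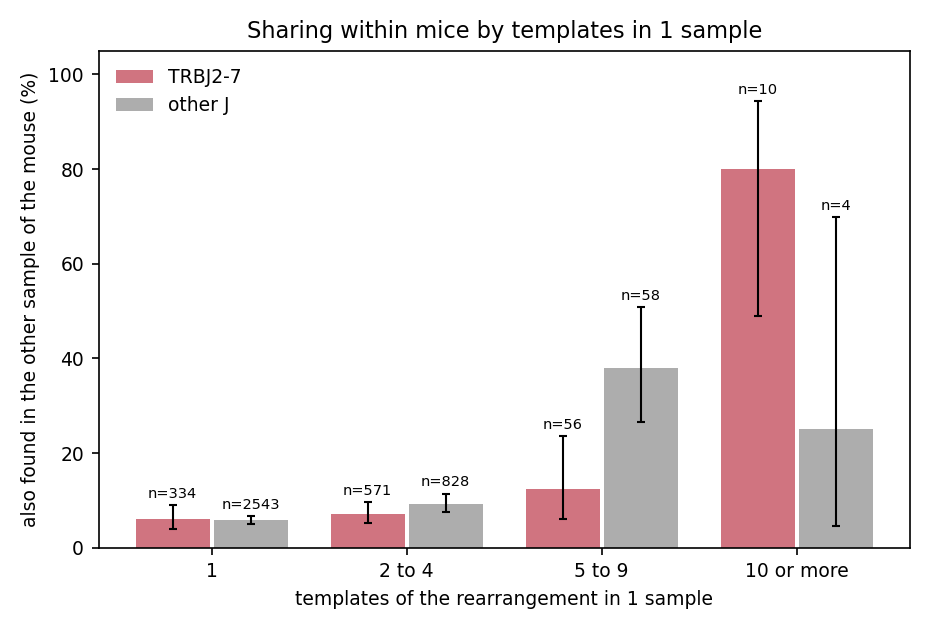
Share of listed rearrangements that the mouse's other sample also held (vertical axis, %, bars over all samples with 95% Wilson intervals and the number of listings) by their templates in 1 sample, for TRBJ2-7 and other J segments. The classes lie together at 1 template, at 5.99 and 5.82%, and apart at 5 to 9, at 12.5 and 37.9%. In mouse 3 alone the 5 to 9 class was at 12.5 and 20.8%.

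Between mice, few TRBJ2-7 rearrangements were shared. By nucleotides, 2 of 931 (0.215%) were found in 2 mice, against 7 of 3302 (0.212%) of other J segments. With clonotypes defined by V segment and CDR3 residues, it was 9 of 740 (1.22%, 0.641 to 2.30), against 21 of 3006 (0.699%, 0.457 to 1.07), and these intervals overlap. These 9 held 4.06% of TRBJ2-7 templates, and 8 of them had several nucleotide forms. All 3 mice shared only TRBV13-2 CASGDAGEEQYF, in the 3 forms printed above, 1 per mouse. TRBV2 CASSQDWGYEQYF had inferior templates only, 8 in mouse 2 and 9 in mouse 3. TRBV15 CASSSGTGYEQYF had 2 superior templates in mouse 1, and 11 superior and 3 inferior templates in mouse 2. TRBV13-2 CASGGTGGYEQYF had inferior templates only, 11 in mouse 1 and 4 in mouse 2. TRBV13-2 held 4 of the 9, TRBV3 2, and TRBV2, TRBV15 and TRBV19 1 each.

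Superior and inferior samples were compared last, a contrast that did not choose the segment. TRBJ2-7 held 33.6, 37.99 and 29.8% of templates in the superior samples of mice 1, 2 and 3, against 31.8, 35.3 and 26.9% in the inferior samples. It was higher in the superior sample of 3 of 3 mice and did not pass the test (log2 0.12, SE 0.14, adjusted p = 0.744 by edgeR). With the mouse as a block, edgeR's adjusted p was 0.338, and 1 of 12 J segments had an unadjusted p under 0.05. edgeR called 0 of 12 J segments (0%), with 0 at an unadjusted p under 0.05, and DESeq2 called 0, with 0 unadjusted. Of the others, TRBJ1-5 had the largest fall, at 3.62 ± 1.06% against 5.08 ± 0.712% (SD, n = 3 each; edgeR adjusted p = 0.423).

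Templates per TRBJ2-7 rearrangement averaged 2.19 ± 0.0721 over the superior samples, against 2.39 ± 0.0659 over the inferior ones (SD, n = 3 each), and the groups did not overlap. It was lower in the superior sample of 3 of 3 mice. The exact permutation p over 3 against 3 samples was 0.1, its smallest value, without regard to the pairing by mouse. The inferior sample held more templates in mice 1 and 3. With each sample thinned to 667 templates the values were 2.13, 1.77 and 1.62 in the superior and 1.69, 1.94 and 1.43 in the inferior samples. The difference then turned to 0.155 (exact permutation p = 0.5), so the direction changed with thinning. Single templates made up 36.7 ± 3.57% of TRBJ2-7 rearrangements in superior and 32.7 ± 3.48% in inferior samples (exact permutation p = 0.3).

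V use among TRBJ2-7 templates did not separate the groups: edgeR called 0 of 21 V segments (0%), with 0 at an unadjusted p under 0.05, and DESeq2 called 0, with 0 unadjusted. TRBV29 was at 6.70, 0.962 and 2.36% in the superior samples of mice 1, 2 and 3, against 0.459, 1.23 and 2.20% in the inferior samples, so mouse 1 stood apart. TRBV16 was at 4.82 ± 1.24% against 7.51 ± 1.94%, and TRBV2 at 9.45 ± 4.95% against 14.7 ± 8.79%, lower in the superior sample of 3 of 3 mice for TRBV2 and 2 of 3 for TRBV16. TRBV14, TRBV17 and TRBV23 had log2 differences of 1.42 (SE 1.54), 0.83 (SE 1.25) and -1.61 (SE 1.31) on few templates. The edgeR adjusted p was 0.956 for all 6.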

How the data were processed

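Genomic DNA of 6 splenic Tfr samples was amplified with the immunoSEQ mouse TCRB kit, per the labels' protocols. The deposited count of each rearrangement is a whole number. Whether templates or reads were counted is not stated in them; templates is the word used here. A second deposited column, the productive frequency, is the same count as a fraction of its sample's sum, and was not analysed further. The build was mm10, per the submitters' processing notes. The sources used here name no aligner, clonotype caller or filter. Coordinates come from RefSeq for GRCm38.p6, the assembly of mm10, in which all 43 V and J names matched.

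Segments were compared with edgeR 4.0.16 (R 4.3.3), its quasi-likelihood test with a common dispersion, total counts as library size, segments of 10 or more and a threshold of 0.05 after Benjamini-Hochberg adjustment. DESeq2 1.42.0 served as a second tool. The test was tested on simulated data with planted changes. Those data held no spread between mice beyond counting error, so they do not show how the test behaves with such spread. V pairing used distinct rearrangements per mouse. Single values used two-sided exact permutation tests, in which p-values cover the 3 mice only. Thinned values are means of 200 draws. The remaining steps ran in Python 3.11.15 with pandas 2.3.3, numpy 2.4.6, scipy 1.17.1. CDR3 length left out CDR3s not starting with cysteine, 41 of all 4409 listed and 2 of the 971 with TRBJ2-7. With all CDR3s kept, the length difference was -0.56 residues. J comparisons left out unresolved J segments. Alternatives were merging of upstream copies, caps on or removal of large counts, weighting, thinning, other J classes, normalization, the filter, the mouse block and leaving out each mouse.

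Samples are paired by animal, through the mouse number of their titles. Deviations over 12 J shares correlated at 0.118, 0.936 and 0.761 in mice 1, 2 and 3. The members, lists and rules were chosen with earlier results of these data known. Named were J segments of 10 or more templates, the 3 nearest in V use, the 10 V segments with the most TRBJ2-7 rearrangements, any called and the 3 largest rises and falls per fit, the 15 largest TRBJ2-7 clonotypes and the 10 largest, or as many as exist, that at least 2 mice share. The text gives the examples among them that each comparison turns on.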

Additional observations from a re-analysis of the deposited data

Results flagged for a closer look

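In 5 rearrangements with 7 templates the J segment was listed as TRBJ2 without its number, above the 3 counts that a count of 0 allows. They entered no J comparison. They lay in 4 of the 6 samples, and 0 of the 5 ended in the 7 bases that all TRBJ2-7 rearrangements share.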

How the results depend on the processing

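The log2 ratio of templates per rearrangement, TRBJ2-7 over other J segments (0.73), was 0.91 after merging upstream copies, 0.64 with counts capped at 5, 0.60 without the 10 largest rearrangements of each sample, 0.24 among rearrangements of 2 or more templates and 0.87 against TRBJ2-1 to TRBJ2-5. Within V segments (0.74) it was 0.91 merged and 0.65 capped. The surplus of rearrangements of 5 or more templates (5.47 points) was 8.77 merged, 24.5 at 3 or more and 1.01 at 10 or more. At 10 or more the surplus was 0.954, 2 and 0.0699 points in mice 1, 2 and 3. The superior minus inferior difference in templates per TRBJ2-7 rearrangement turned to 0.155 when thinned; the cause was not tested. The TRBD1 difference (0.595 points) was -0.262 merged, 3.71 with unresolved D kept, 3.23 by templates, and -2.89 to 2.82 without each mouse. The sharing difference (0.489) was -0.906 to 1.81 without each mouse. At equal size in 1 sample it was -2.11, with the class of 10 or more templates left out in mouse 2. With size summed over both samples it was -5.80, and -6.79 merged, but that sum holds the sharing itself, so these values cannot be read as a difference at equal size. CDR3 length (-0.58) was -0.32 against TRBJ1 only. Another 70 values of these and the other main results did not change by the rule used. For the counts of segments called, that meant 0 in each setting. For the exact permutation tests only the direction could change, as their smallest p is above 0.05. The rest kept direction and side of the threshold or stayed within the spread.

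With the mouse as a block, edgeR called 0 J segments and 0 V segments among TRBJ2-7, and without the block 0 in V pairing, so the pairing changed no call. Named segments that turned sign were called in no setting, and the cause was not tested. Superior over inferior, TRBJ2-5 was -0.0241 with rearrangements counted once and -0.0339 merged. In V pairing, TRBV13-3 was 0.37 by templates, 0.0457 merged, 0.10 by DESeq2 and 0.00417 with TMM (-0.0590 to 0.0583 without each mouse). TRBV3 was 0.0794 by templates, 0.0639 merged, 0.11 against TRBJ2-1 to TRBJ2-5, 0.0759 by DESeq2 and 0.0043 with TMM (-0.15 to 0.0621). TRBV2 was 0.0932 by templates (-0.78 to 0.25), and without each mouse TRBV19 was -0.10 to 0.29 and TRBV31 -0.32 to 0.0203. Among TRBJ2-7 templates, TRBV13-3 was -0.41 counted once, -0.00292 with the block and -0.0763 merged (-0.76 to 0.68). Without each mouse TRBV1 was -0.48 to 0.0305, TRBV13-2 (-0.44) -0.82 to 0.20, TRBV15 -0.17 to 0.36, TRBV29 (1.2) -0.14 to 2.09 and TRBV5 -0.12 to 0.51.

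The settings without TRBV2, with TRBJ1 only, merged V use, merged equal size and size in 1 sample were chosen after seeing the data. With 1 to 3 templates in 1 sample a clone can be missed in the other, and 3 mice limit every test.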
